A study of Mus musculus with 8 samples.

Results

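Genes of the cell division cycle were compared between microglia and bone marrow-derived macrophages (BMDM) sorted from a mouse brain tumor. The group was set as a list of gene symbols, with earlier results of these data known. It held 39 of the 55450 genes in the deposited count table, of which 17 act in DNA replication and 22 in mitosis. All libraries came from wild-type cells of GL261 tumors, a mouse glioma line that had been implanted orthotopically in the brain of isogenic animals. The 3 microglia libraries came from cells sorted as F4/80+ CD11b+ CD45 low, Ly6C low or negative, Ly6G- and CD49d low or negative. The 5 BMDM libraries came from cells sorted as F4/80+ CD11b+ CD45+, Ly6C low or negative, Ly6G- and CD49d high. Whether the libraries of a group stem from different mice is not said in the labels. The tests therefore rest on variation among these 8 libraries, part of which may be technical.

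A dividing cell first loads the MCM helicase onto replication origins, then copies its DNA in S phase and separates the copies in mitosis. E2F transcription factors, released from the retinoblastoma protein when cyclin D and cyclin E kinases act, switch on replication genes, while cyclin B with Cdk1 drives mitosis until the anaphase-promoting complex destroys cyclin B. Microglia are the resident macrophages of the brain and renew themselves locally, whereas BMDM derive from circulating monocytes that divide mainly as bone marrow precursors.

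Promoters are shown for 6 members to show motifs that cell cycle promoters are known for. Each sequence is the 250 bases before the RefSeq gene start (build GRCm38.p6), on the gene's own strand, with capitals marking matches to the motifs searched. The motifs were E2F sites (TTTGGCGC, TTTCCCGC, TTTGGCGG, TTTCGCGC or TTTCCCGG), cell cycle homology regions (CHR; TTTGAA or TTTAAA) and CCAAT boxes, each on both strands, with overlapping matches counted separately. The windows lie at chr8:75109259-75109508 (plus strand), chr1:128359706-128359955 (minus strand) and chr7:102441445-102441694 (plus strand) for the replication genes. Those of the mitosis genes lie at chr9:70421555-70421804 (minus strand), chr7:122159185-122159434 (plus strand) and chr11:99024190-99024439 (minus strand).
Mcm5: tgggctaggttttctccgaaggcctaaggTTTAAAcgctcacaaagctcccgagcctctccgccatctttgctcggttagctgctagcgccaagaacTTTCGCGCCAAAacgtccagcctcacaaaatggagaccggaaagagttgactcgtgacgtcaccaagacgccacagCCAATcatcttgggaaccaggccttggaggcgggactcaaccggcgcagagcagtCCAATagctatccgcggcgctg
Mcm6: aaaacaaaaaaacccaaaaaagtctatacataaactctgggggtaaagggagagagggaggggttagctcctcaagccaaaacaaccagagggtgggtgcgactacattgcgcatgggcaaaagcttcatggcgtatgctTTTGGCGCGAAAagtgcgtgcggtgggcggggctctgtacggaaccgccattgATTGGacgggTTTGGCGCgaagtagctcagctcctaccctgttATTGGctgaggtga
Rrm1: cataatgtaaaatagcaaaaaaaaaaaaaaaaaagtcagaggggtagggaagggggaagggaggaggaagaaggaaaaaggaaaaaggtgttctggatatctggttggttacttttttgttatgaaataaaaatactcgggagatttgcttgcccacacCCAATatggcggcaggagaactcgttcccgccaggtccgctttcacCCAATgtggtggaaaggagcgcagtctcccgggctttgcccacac
Ccnb2: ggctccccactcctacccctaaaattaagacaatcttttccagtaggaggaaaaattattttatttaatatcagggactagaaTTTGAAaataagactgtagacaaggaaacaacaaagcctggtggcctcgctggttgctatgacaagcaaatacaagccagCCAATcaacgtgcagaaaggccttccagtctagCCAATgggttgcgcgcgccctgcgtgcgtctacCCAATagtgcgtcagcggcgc
Plk1: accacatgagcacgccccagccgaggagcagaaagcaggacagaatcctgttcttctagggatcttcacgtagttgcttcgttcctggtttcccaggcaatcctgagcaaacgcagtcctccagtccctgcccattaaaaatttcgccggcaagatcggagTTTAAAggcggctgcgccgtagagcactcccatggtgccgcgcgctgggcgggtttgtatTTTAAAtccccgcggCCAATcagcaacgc
Top2a: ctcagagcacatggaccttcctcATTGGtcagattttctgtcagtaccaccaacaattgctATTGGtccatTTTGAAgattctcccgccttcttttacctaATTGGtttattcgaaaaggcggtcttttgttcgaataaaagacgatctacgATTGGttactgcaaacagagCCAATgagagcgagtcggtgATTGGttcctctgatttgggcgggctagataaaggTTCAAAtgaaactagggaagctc

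A RefSeq promoter was matched for 32 of the 39 members. An E2F match was found in 5 of 14 replication promoters (35.7%) and 2 of 18 mitosis promoters (11.1%), against 3.36% of the 27025 promoters in the table. A CHR match was found in 12 of 18 mitosis promoters (66.7%) and 4 of 14 replication promoters (28.6%), against 28.1% of all. CCAAT boxes were found in 16 of 18 mitosis promoters (88.9%) and 9 of 14 replication promoters (64.3%), against 37.5% of all. All 3 motifs were found in both sets, and the shares were not tested against each other. Of the 6 promoters shown, Mcm5 and Mcm6 carried E2F matches, Mcm5, Ccnb2, Plk1 and Top2a carried CHR matches, and all 6 carried CCAAT boxes. A match is a description of the letters and does not show that a factor binds.

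Libraries held 5890406 to 16659154 counts. Gm42418, an RNA that overlaps ribosomal RNA sequence, took 14.8% to 48.9% of the counts. Of the 16467 genes tested, 1.79% to 11.9% had no count in a microglia library and 2.95% to 5.33% in BMDM 1 to 3, but 26.5% in BMDM 4 and 20.4% in BMDM 5. Of the markers of the sorted cells, 7 of 9 microglia genes were called lower and 6 of 6 BMDM genes higher in BMDM. By the same edgeR test, described below, 0.814% and 1.11% of all genes were called. The marker lists were chosen with earlier results of these data known, so they are no independent check of identity. Tmem119 and Gpr34 were not called, and Tmem119 overlapped between the groups. In BMDM, microglia markers still summed to 784 to 1719 CPM and BMDM markers to 419 to 1113 CPM. Levels below are CPM (a gene's count scaled to a common library size) after TMM scaling, and fold changes are log2 values of BMDM minus microglia.

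All 39 members were detected and tested, and none passed the threshold in either direction. Here edgeR's quasi-likelihood test was used, adjusted by Benjamini-Hochberg over all genes at a threshold of 0.05, and it called 0.814% of all genes lower and 1.11% higher in BMDM. DESeq2 also called 0 members, against 1.95% of genes lower and 3.74% higher. Before adjustment, 4 members were under 0.05 on the lower side in BMDM (Mcm7, Rrm1, Uhrf1 and Cenpe) and 1 on the higher side (Gins2), against 7.27% and 6.49% of all genes. For 7 members every BMDM library was below every microglia library (Mcm3, Mcm7, Rrm1, Uhrf1, Ccnb2, Cenpe and Kif11), which is 17.9% of members against 8.66% of all genes. Bub1b was the member without overlap on the higher side, against 4.32% of all genes.

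The fitted fold changes lay mostly on the microglia side without passing the test. They were negative for 31 of 39 members, 11 of 17 in replication and 20 of 22 in mitosis, against 46.9% of all genes. With BMDM 1 to 3 alone they were negative for 27 of 39 members, 8 of 17 in replication and 19 of 22 in mitosis. Of all 16182 genes tested there, 7603 were negative. The median was -0.67 over the members, -0.40 for replication and -0.73 for mitosis, against 0.08 over all genes. Single values ran from -2.88 to 1.84, with standard errors (SE) of 0.31 to 1.75. In bulk libraries, fewer dividing cells and less RNA of these genes per cell cannot be told apart.

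**Figure D1:**
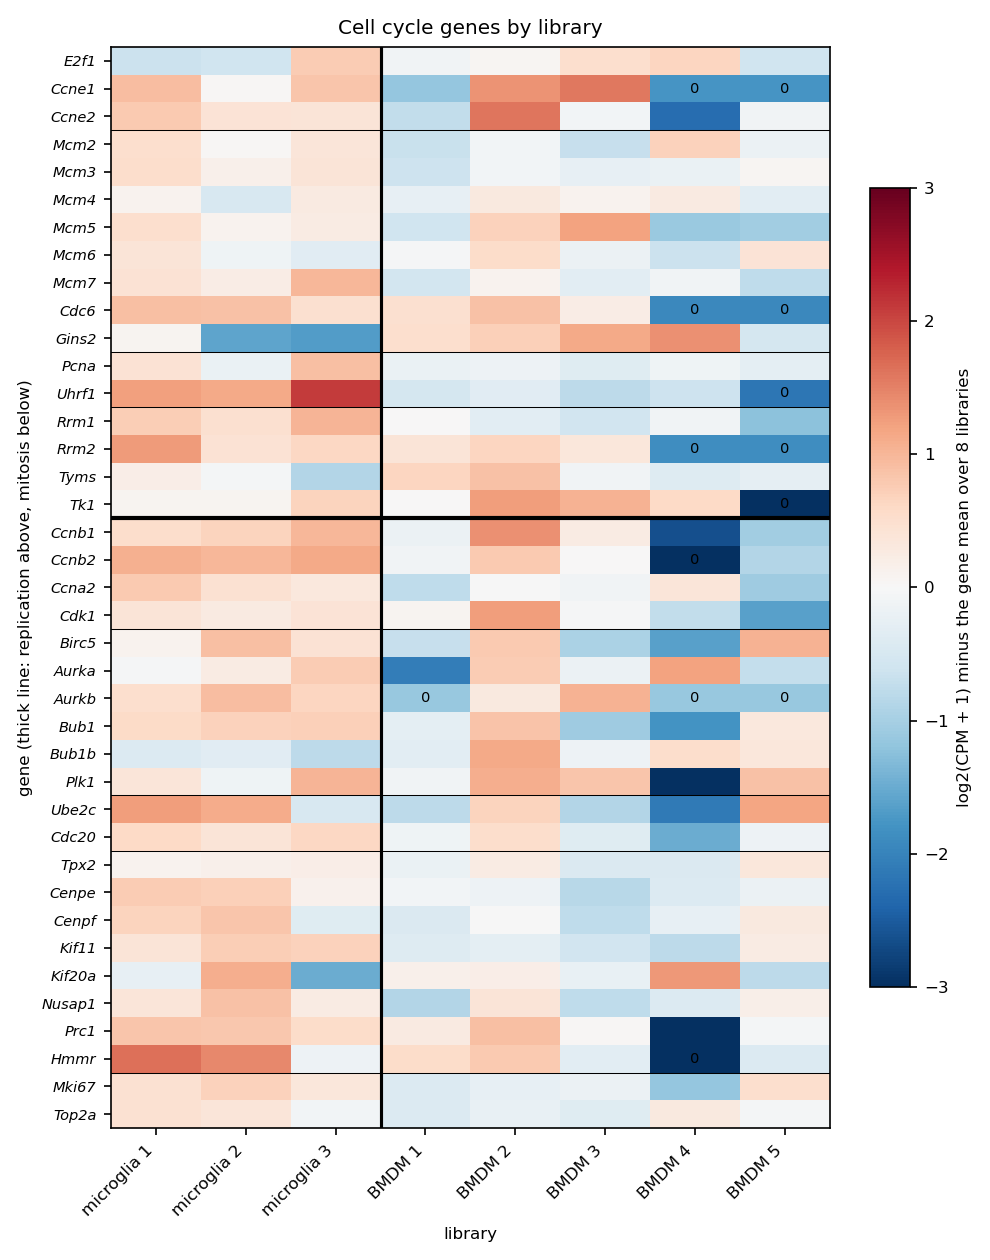
Level of each of the 39 members (rows, by role) in the 8 libraries (columns), as log2(CPM + 1) minus the gene's mean over the libraries, with colours capped at 3 in either direction. A 0 marks a member with no count, of which BMDM 4 and BMDM 5 each hold 6. Of all genes tested, 26.5% had no count in BMDM 4 and 20.4% had none in BMDM 5.

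**Figure D2:**
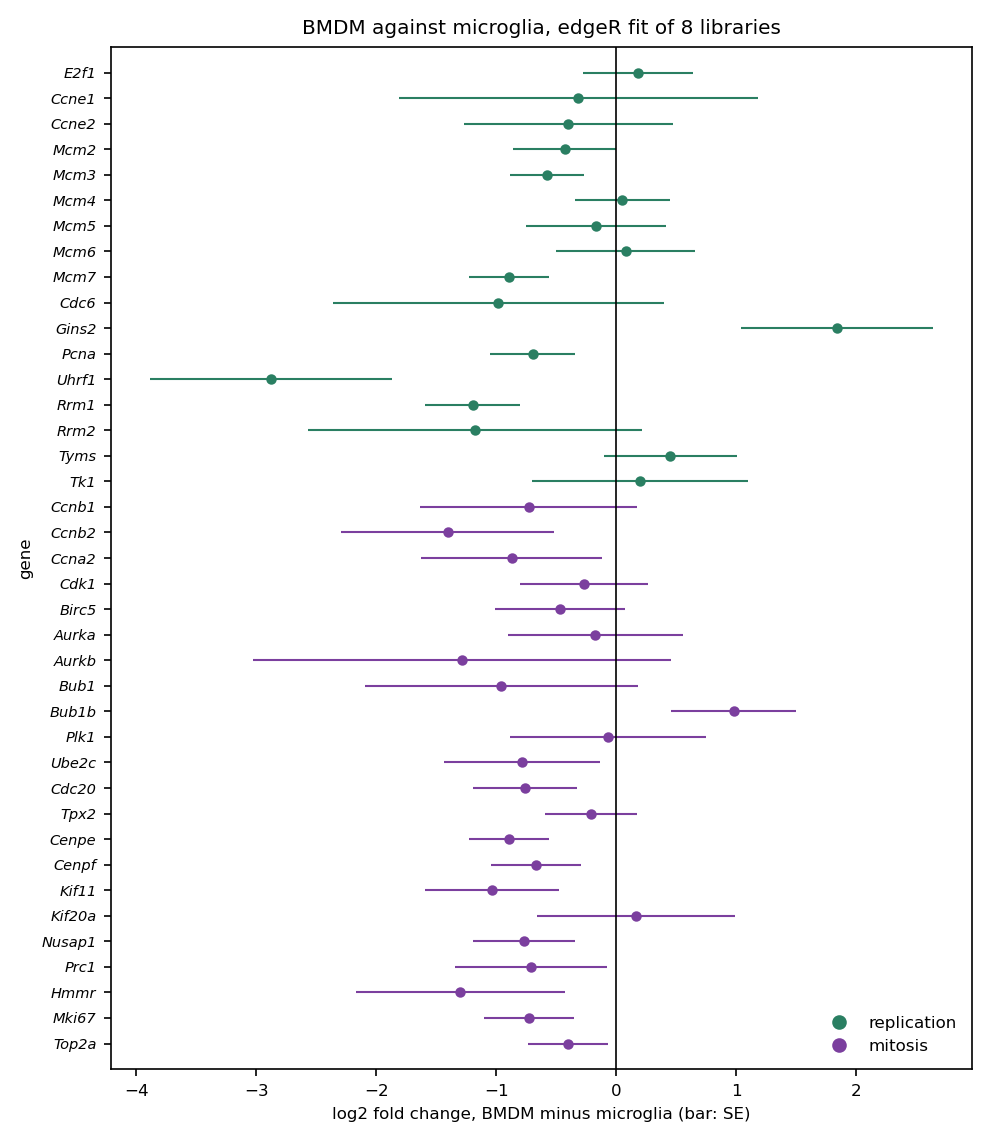
Fitted log2 fold change (BMDM minus microglia) of each member, with bars for its standard error and colours for replication and mitosis. Of the 39 values 31 are negative, and none passed the threshold.

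The proteins that license origins, the MCM helicase and its loader Cdc6, had a median fold change of -0.30 over their role. Mcm7, a helicase subunit on chromosome 5 (138164583 to 138172422, GRCm38), held 74.5, 63.5 and 109 CPM in microglia 1 to 3. It held 36.6, 58.6, 43.6, 50.8 and 31.6 CPM in BMDM 1 to 5, all below the lowest microglia library. The fold change of Mcm7 was -0.90 (SE 0.33, adjusted p = 0.221 by edgeR's quasi-likelihood test). Exons of Mcm7 overlap microRNA genes on its own strand and other genes on the opposite strand, so its reads may be shared. The sources used here do not give the strand setting of the counting. Mcm3, another subunit, held 67.5, 52.2 and 61.5 CPM in microglia and 29.8, 44.2, 39.4, 40.4 and 48.5 CPM in BMDM, without overlap. Mcm2 held 27.4, 19.4 and 24.8 CPM in microglia and 11.5, 17.9, 11.4, 31.2 and 16.7 CPM in BMDM, where BMDM 4 was the highest of all 8 libraries. Mcm4 and Mcm6, also ring subunits, had fold changes of 0.05 and 0.08 (SE 0.39 and 0.58), both smaller than their errors. Gins2, part of the complex that activates the helicase, stood on the other side with 6.83, 1.51 and 1.33 CPM in microglia and 9.59, 11.2, 15.3, 18.1 and 4.15 CPM in BMDM. Only BMDM 5 lay within the microglia range, and the fold change was 1.84 (SE 0.80, adjusted p = 0.316 by edgeR's quasi-likelihood test). Gins2 overlaps exons of Gse1 on the opposite strand, so its reads may be shared too.

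At the fork and in DNA maintenance, Uhrf1, which brings the maintenance methyltransferase Dnmt1 to newly copied DNA, had the most negative fold change of the members. Uhrf1 (chromosome 17, 56303321 to 56323486) held 9.57, 8.85 and 18.1 CPM in microglia. It held 2.13, 2.59, 1.60, 1.91 and 0 CPM in BMDM, so every BMDM library was below every microglia library. The fold change was -2.88 (SE 1.01, adjusted p = 0.19 by edgeR's quasi-likelihood test). Without BMDM 5 the adjusted p by edgeR was 0.0421, within a range of 0.0139 to 0.658 over all alternatives. Pcna, the sliding clamp of the DNA polymerases, was at 36.6 ± 13.9 CPM (SD, n = 3) in microglia and 22.6 ± 1.68 CPM (SD, n = 5) in BMDM. Microglia 2, at 22.8 CPM, lay inside the narrow BMDM range of 20.2 to 24.2 CPM.

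Among the enzymes of nucleotide synthesis, Rrm1, the large subunit of ribonucleotide reductase, separated the groups. Rrm1 (chromosome 7, 102441695 to 102469771) held 33.6, 28.2 and 40.8 CPM in microglia. It held 19.8, 15.6, 12.9, 18.3 and 7.88 CPM in BMDM, without overlap, for a fold change of -1.20 (SE 0.40, adjusted p = 0.163 by edgeR's quasi-likelihood test). Its small partner subunit Rrm2 held 7.83, 3.92 and 4.56 CPM in microglia and 3.73, 4.68, 3.55, 0 and 0 CPM in BMDM, where BMDM 2 lay within the microglia range. Tk1, thymidine kinase, held 13.4, 13.2 and 20.6 CPM in microglia and 12.6, 31.0, 26.9, 19.6 and 0 CPM in BMDM, with broad overlap. Tyms, thymidylate synthase, had a fold change of 0.45 (SE 0.55).

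The G1/S regulators overlapped between the groups. E2f1, an activator of replication genes, held 14.4, 15.1 and 39.9 CPM in microglia and 21.4, 24.3, 33.3, 37.1 and 14.9 CPM in BMDM. Ccne2, a cyclin E, held 11.5, 8.65 and 8.45 CPM in microglia and 3.33, 20.8, 5.83, 0.478 and 5.67 CPM in BMDM, where BMDM 2 was above all other libraries.

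**Figure D3:**
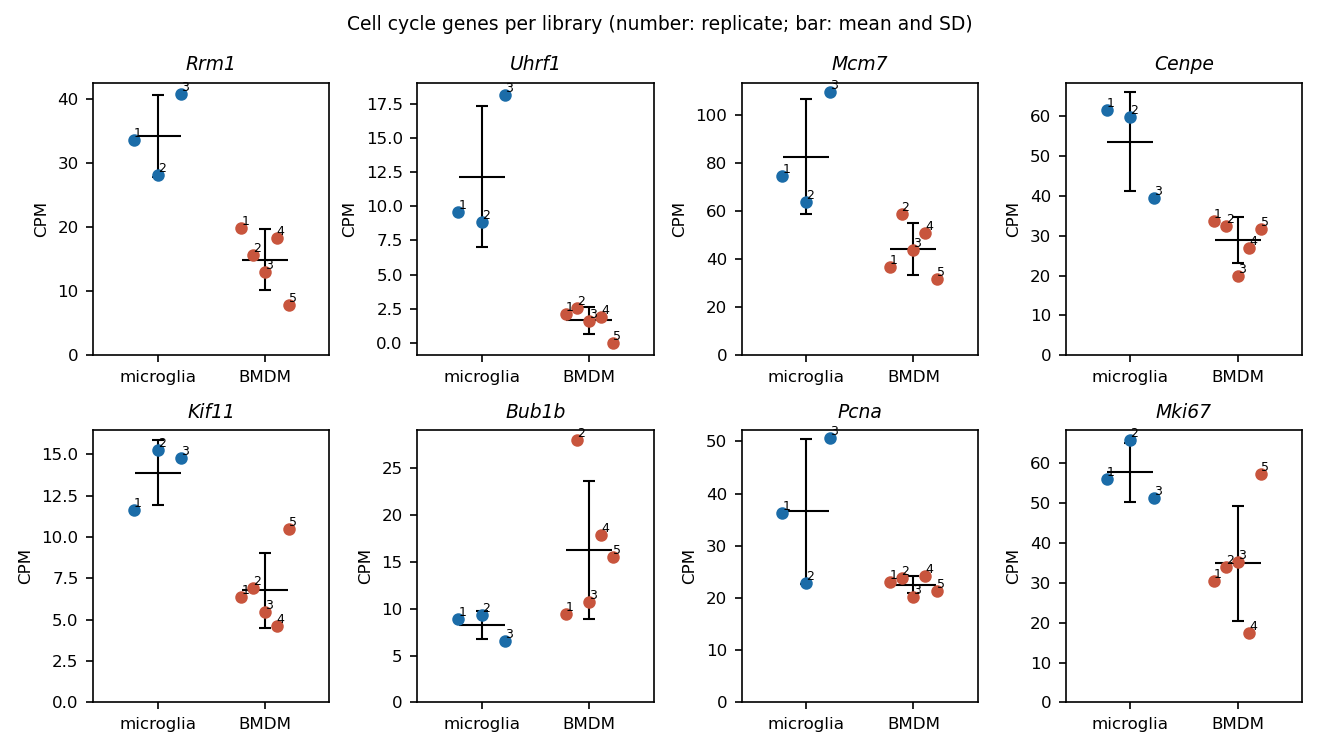
CPM of 8 members in each library, with points for libraries (numbered by replicate) and bars for the group mean and SD. Rrm1, Uhrf1, Mcm7, Cenpe and Kif11 do not overlap between the groups, and Bub1b lies higher in every BMDM library.

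Cyclin B and its kinase Cdk1 start mitosis, and the mitotic cyclins and Cdk1 had a median fold change of -0.80. Ccnb2, a B-type cyclin, held 15.7, 14.9 and 16.5 CPM in microglia. It held 6.39, 12.7, 7.09, 0 and 3.32 CPM in BMDM, all below microglia, with a fold change of -1.41 (SE 0.89, adjusted p = 0.571 by edgeR's quasi-likelihood test). Cdk1 itself held 29.6, 27.2 and 29.7 CPM in microglia and 23.6, 54.8, 21.6, 12.9 and 6.50 CPM in BMDM. Ccnb1, the other B-type cyclin, held 9.31, 10.5 and 13.3 CPM in microglia and 5.33, 17.6, 7.55, 0.159 and 2.49 CPM in BMDM. BMDM 2 was the highest library for Cdk1 and Ccnb1, and for both genes the BMDM range enclosed that of microglia.

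The mitotic kinases and checkpoint proteins had a median fold change of -0.32. Plk1, a kinase of spindle assembly, held 22.2, 15.6 and 35.8 CPM in microglia and 15.8, 37.6, 31.0, 0.159 and 32.5 CPM in BMDM. Only BMDM 4 was low, and the fold change was -0.07 (SE 0.82). Birc5 (survivin), a partner of the Aurora B kinase, held 35.1, 61.7 and 43.8 CPM in microglia and 19.6, 56.1, 16.4, 9.71 and 67.6 CPM in BMDM, with BMDM 5 the highest of all. Bub1b, which delays anaphase until chromosomes are attached, held 8.89, 9.35 and 6.56 CPM in microglia. It held 9.45, 28.0, 10.8, 17.8 and 15.5 CPM in BMDM, where the lowest library was just above the highest microglia library. The fold change of Bub1b was 0.98 (SE 0.52, adjusted p = 0.453 by edgeR's quasi-likelihood test).

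Spindle, kinesin and kinetochore genes had a median fold change of -0.74. Cenpe, a kinetochore motor on chromosome 3 (135212537 to 135273611), held 61.7, 59.9 and 39.4 CPM in microglia. It held 33.7, 32.4, 19.8, 26.9 and 31.8 CPM in BMDM, without overlap, with a fold change of -0.89 (SE 0.33, adjusted p = 0.222 by edgeR's quasi-likelihood test). Cenpf, another kinetochore protein, held 61.1, 68.0 and 29.5 CPM in microglia and up to 47.0 CPM in BMDM, with microglia 3 inside the BMDM range. Kif11, the motor that pushes spindle poles apart, held 11.6, 15.3 and 14.8 CPM in microglia and 6.39, 6.90, 5.49, 4.62 and 10.5 CPM in BMDM, also without overlap.

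Of the ubiquitin ligase arm that ends mitosis, Cdc20, an activator of the anaphase-promoting complex, held 33.7, 28.9 and 34.3 CPM in microglia and 7.16 to 31.9 CPM in BMDM, where BMDM 2 lay within the microglia range. Ube2c, its ubiquitin-conjugating enzyme, held 47.4, 42.9 and 13.6 CPM in microglia and 10.8, 31.0, 9.95, 3.66 and 45.1 CPM in BMDM. Microglia 3 and BMDM 5 thus crossed between the groups for Ube2c.

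Mki67, the antigen used to count dividing cells (chromosome 7, 135689784 to 135716361), held 56.2, 65.9 and 51.3 CPM in microglia and 30.4, 34.0, 35.3, 17.3 and 57.4 CPM in BMDM. BMDM 5 lay within the microglia range and the other 4 libraries below it, and the fold change was -0.73 (SE 0.37, adjusted p = 0.425 by edgeR's quasi-likelihood test). Top2a, which untangles chromosomes, held 178, 167 and 122 CPM in microglia and 96.8, 111, 99.6, 158 and 124 CPM in BMDM, with overlap.

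Summed over members, replication genes held 372 ± 75.0 CPM (SD, n = 3) in microglia and 272 ± 61.1 CPM (SD, n = 5) in BMDM. Mitosis genes held 686 ± 99.4 CPM (SD, n = 3) in microglia and 467 ± 123 CPM (SD, n = 5) in BMDM. Both sums overlapped between the groups. Markers of glioma or glial progenitor cells followed part of the order of the mitosis sum. Of the 12 such markers 10 were tested and 0 called, and their sum ran from 108 to 289 CPM in microglia and from 29.1 to 159 CPM in BMDM. BMDM 4, BMDM 3 and BMDM 1, in that order, had the lowest glioma marker sums and the lowest mitosis sums, and microglia 2 and 1 had the highest of both. Sox2, a neural progenitor factor, held 46.3, 52.9 and 11.6 CPM in microglia and 9.72, 24.9, 8.92, 6.21 and 31.0 CPM in BMDM. Fabp7, Pdgfra and Sox9 had positive fold changes of 2.07, 1.82 and 0.17 (SE 2.03, 1.81 and 1.10). The other tested markers, Sox2 among them, had negative ones. Tnc was at 0 in all BMDM libraries and in microglia 3, and Egfr was at 0 in all microglia libraries, BMDM 4 and BMDM 5. The part of tumor cell RNA in the values of the members was not tested.

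By edgeR some markers of other blood cells were called, against 0.814% of all genes lower and 1.11% higher in BMDM. DESeq2 also gave an adjusted p under 0.05 to Cd3d, Cd3e and Cd2 (T cell), Gzma (NK cell), S100a9 and Retnlg (neutrophil), all higher in BMDM. It did so for Csf3r (neutrophil) and Hbb-bs (erythroid) as lower. T cell markers (8 genes, 7 tested, 1 called higher) summed to 4.67 to 18.6 CPM in microglia and 23.2 to 132 CPM in BMDM. Myeloid progenitor markers (6 genes, 2 tested, 1 called lower) summed to 51.0 to 117 CPM in microglia and 11.3 to 27.8 CPM in BMDM. In microglia most of that sum was Cd34, a surface protein also found on other cells, at 74.7, 45.4 and 114 CPM, against 2.21 to 12.8 CPM in BMDM. Kit, another of these markers, held 2.34 to 7.31 CPM in microglia and 0 to 14.2 CPM in BMDM, and was above Cd34 in BMDM 1, BMDM 2 and BMDM 5. Prtn3 was higher in every BMDM library than in any microglia library, at up to 0.105 and up to 2.86 CPM in microglia and BMDM. Mpo, Elane and Ctsg were at 0 in all microglia libraries and at most at 0.862, 0.686 and 0.399 CPM in BMDM. Prtn3, Mpo, Elane and Ctsg had too few counts to be tested. NK cell markers (4 genes, 3 tested, 0 called) summed to 0.556 to 8.85 CPM in microglia and 4.98 to 129.6 CPM in BMDM. Dendritic cell markers (6 genes, 5 tested, 1 called higher) summed to 1.74 to 4.53 and 2.90 to 69.5 CPM. Neutrophil markers (6 genes, 4 tested, 1 called higher) summed to 33.4 to 39.1 and 32.9 to 97.3 CPM, a sum of opposite directions. Csf3r was lower in every BMDM library, at 24.4 to 34.4 CPM in microglia and 5.33 to 16.0 CPM in BMDM. S100a8, S100a9 and Retnlg were higher in every BMDM library than in any microglia library, and Cxcr2 and Ly6g overlapped. Erythroid markers (5 genes, 4 tested, 0 called) summed to 110.3 to 248 and 27.6 to 161 CPM. The part of other blood cells in the values of the members was not tested.

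**Figure D4:**
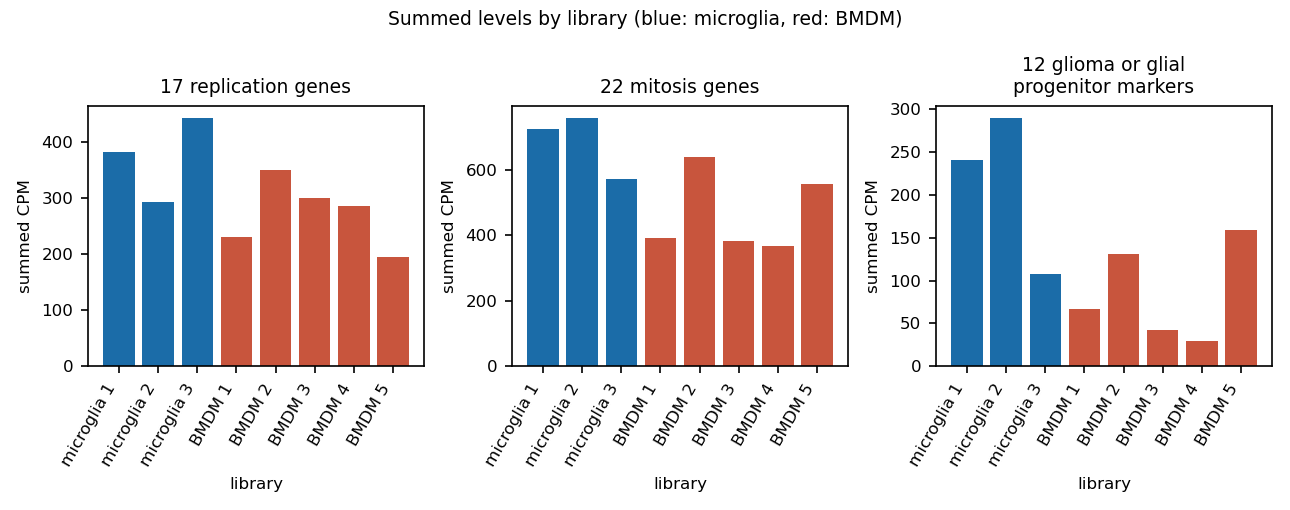
Summed CPM of the replication members, the mitosis members and the glioma or glial progenitor markers in each library. The mitosis sum is lowest in BMDM 4, BMDM 3 and BMDM 1, the libraries with the lowest glioma marker sums.

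No member was without a count in microglia and 1 was in BMDM 1, while BMDM 4 and BMDM 5 each had 6 of 39. Of all genes tested, 26.5% had no count in BMDM 4 and 20.4% had none in BMDM 5. Without these libraries, BMDM 1 to 3 against microglia called 8.11% of 16182 genes lower and 6.35% higher, and 2 members, Uhrf1 and Rrm1, fell, with none higher. Uhrf1 fell by 2.50 on the log2 scale (SE 0.56, adjusted p = 0.0139) and Rrm1 fell by 1.07 (SE 0.30, adjusted p = 0.0381), both by edgeR's quasi-likelihood test. Over all alternatives the adjusted p of Rrm1 ran from 0.0328 to 0.527. In that comparison the median was -0.59 for mitosis members and 0.08 for replication members, against 0.09 over all genes. The replication median was thus near that of all genes there.

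Other replication and mitosis genes, outside the 39, gave no call with all 8 libraries by edgeR or DESeq2. With BMDM 1 to 3 alone, 2 of 44 other replication genes (Rfc1 and Rfc5) and 3 of 52 other mitosis genes (Ckap2l, Ncapd2 and Smc4) were called lower, against 8.11% of all genes, and limma-voom on all libraries called 1 mitosis gene lower (Melk). Of 44 other replication genes tested, 32 had negative fold changes, with a median of -0.38. Of 52 other mitosis genes tested, 41 had negative fold changes, with a median of -0.76. Rfc1, the large subunit of the clamp loader, held 123, 103 and 66.7 CPM in microglia and 44.6, 46.9, 32.5, 30.1 and 75.3 CPM in BMDM. Only BMDM 5 lay within the microglia range. Smc4, a condensin subunit, held 136, 122 and 72.8 CPM in microglia and 28.0 to 78.6 CPM in BMDM, again with BMDM 5 inside the microglia range. Without BMDM 5 the adjusted p by edgeR was 0.0246 for Rfc1 and 0.0423 for Smc4, against 0.173 and 0.18 with all libraries. Calls over all genes also rose without BMDM 5, as given below. With each library left out in turn, the adjusted p of Rfc1 by edgeR ran from 0.0246 to 0.547. Orc6, of the origin recognition complex, held 9.04, 11.3 and 16.6 CPM in microglia and 0.478 to 4.93 CPM in BMDM, without overlap. Ckap2l, a spindle protein, held 29.2, 30.1 and 50.6 CPM in microglia and 11.5, 12.3, 15.4, 27.4 and 6.22 CPM in BMDM, also without overlap.

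Cyclin D with Cdk4 or Cdk6 starts entry into the cycle by phosphorylating the retinoblastoma protein. Of 19 G1 cyclins, kinases, E2F and retinoblastoma family genes, 18 had negative fold changes, with a median of -0.77, and edgeR called 0. Ccnd1, cyclin D1 (chromosome 7, 144929931 to 144939925), held 943, 1027 and 793 CPM in microglia. It held 149, 184, 311, 389 and 463 CPM in BMDM, all far below microglia, with a fold change of -1.62 (SE 0.42, adjusted p = 0.0682 by edgeR's quasi-likelihood test). DESeq2 gave Ccnd1 an adjusted p of 0.00236, and edgeR without BMDM 5 gave 0.0113, in a range of 0.000255 to 0.226 over the alternatives. Myc, a transcription factor of growth, held 25.8, 36.7 and 27.9 CPM in microglia and 1.73, 4.43, 5.15, 4.78 and 17.1 CPM in BMDM, without overlap. Its fold change was -2.18 (SE 0.60, adjusted p = 0.0842 by edgeR's quasi-likelihood test), and DESeq2 gave 0.0297. Without BMDM 5, the highest BMDM library for Myc, edgeR gave an adjusted p of 0.0039, in a range of 0.000223 to 0.278. The cyclin D kinases Cdk4 and Cdk6, chosen after their values were seen, had fold changes of -1.05 (SE 0.39) and -0.77 (SE 0.34). In BMDM 1 to 3 alone, 5 of the 19 genes were called lower (Ccnd1, Cdk4, Cdk6, E2f3 and Myc) and 0 higher, against 8.11% and 6.35% of all genes. There, Ccnd1 fell by 2.09 and Myc fell by 2.98 on the log2 scale, with adjusted p of 0.00355 and 0.00229 by edgeR's quasi-likelihood test.

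Of 16 inhibitors of the cycle, 8 had negative fold changes, and the median was -0.06 with 0 called by edgeR. Cdkn1a, the kinase inhibitor p21, held 309.9, 313 and 563 CPM in microglia and 785, 817, 2044, 1653 and 468 CPM in BMDM. BMDM 5 was the only BMDM library within the microglia range, and the fold change was 1.55 (SE 0.53, adjusted p = 0.18 by edgeR's quasi-likelihood test). DESeq2 gave Cdkn1a an adjusted p of 0.0123, and edgeR without BMDM 5 gave 0.0325, in a range of 0.00104 to 0.531. Wee1, the kinase that holds Cdk1 inactive, held 16.5, 17.9 and 11.6 CPM in microglia and 5.33, 4.06, 3.43, 0.955 and 2.63 CPM in BMDM, without overlap. Its fold change was -2.22 (SE 0.68, adjusted p = 0.13 by edgeR's quasi-likelihood test), and DESeq2 gave 0.0356, in a range of 0.0196 to 0.512. In BMDM 1 to 3 alone, 4 of 15 inhibitors tested were called lower (Tob1, Tob2, Wee1 and Ccng2) and 2 higher (Cdkn1a and Cdkn1b), against 8.11% and 6.35% of all genes. There, Wee1 fell by 1.83 and Cdkn1a rose by 1.64 on the log2 scale, with adjusted p of 0.0196 and 0.0265 by edgeR's quasi-likelihood test.

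**Figure D5:**
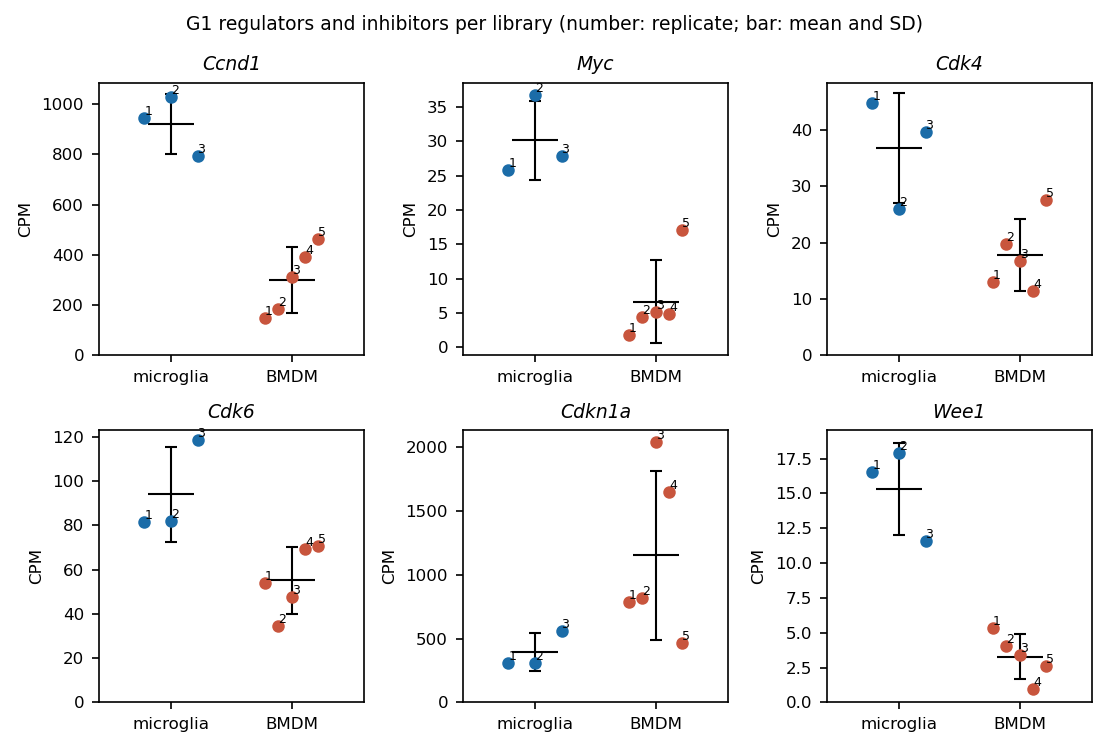
CPM of 6 regulators of cycle entry in each library, with points for libraries (numbered by replicate) and bars for the group mean and SD. Ccnd1, Myc, Cdk6 and Wee1 are lower in every BMDM library than in any microglia library, and Cdkn1a is higher in all BMDM libraries but BMDM 5 than in microglia.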

How the data were processed

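RNA from 3 microglia and 5 BMDM samples was sequenced as 3' end libraries. The authors deposited raw counts per gene. The tools named in the submitters' processing notes are STAR, featureCounts, cutadapt, FastQC and DESeq2, with the build mm10. Strand and multimapping settings are not given in the sources used here. Column names matched the sample labels. No unmapped sample column was used (0 found).

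Genes were filtered with edgeR's filterByExpr (minimum count 10, minimum total 15), scaled by TMM and tested with edgeR 4.0.16 (robust quasi-likelihood fit) in R 4.3.3, with Benjamini-Hochberg adjustment over 16467 genes at 0.05. DESeq2 1.42.0 and limma 3.58.1 (voom) were alternatives. Further alternatives were other scaling, other filters, Gm42418 left out, a replicate block, BMDM 1 to 3 alone and each library left out. The fit was tested on simulated data. Members and lists were chosen with earlier results of these data known. Members were named if called, if among the 2 with the highest mean CPM of their role, or if in a set list (Mki67, Top2a, Ccnb1, Cdk1, Pcna, Mcm2, Rrm2, E2f1). Of each other list with no call, the 2 genes with the smallest unadjusted p were named. Gins2, Bub1b, Kif11, Mcm4, Mcm6, Tyms, Cdk4, Cdk6 and the further genes listed beside small counts were chosen after their values were seen. A member without a count has a floor of 3 counts, 0.399 to 0.478 CPM in BMDM 1, 4 and 5, for counting error only. The libraries of a group differed by more than counting noise. Of the members, 11 overlap an exon on the opposite strand and 2 one on their own strand.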

Additional observations from a re-analysis of the deposited data

Results flagged for a closer look

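Among 36 gene levels and sums checked in the 5 BMDM libraries, 3 had a library far from the others by Dixon's test at its 95% critical value of 0.71, and chance alone flags about 1 in 20 such groups. Ccne2 was at 20.8 CPM in BMDM 2, with the others at 0.478 to 5.83 CPM. Orc6, a subunit of the origin recognition complex, was at 0.478 CPM in BMDM 4, with the others at 4.35 to 4.93 CPM. Myc was at 17.1 CPM in BMDM 5, with the others at 1.73 to 5.15 CPM.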

How the results depend on the processing

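The count of members called moved from 0 in few settings. With the replicate block, 4 of 39 were called lower and 1 higher, 3 in replication and 2 in mitosis. Of all 16467 genes, that setting called 1774 lower and 1449 higher. BMDM 4 and BMDM 5 share their numbers with no microglia library, so that contrast rests on replicates 1 to 3. With BMDM 1 to 3 alone, 2 of 39 were called lower, both in replication, against 8.11% of all genes. Leaving out each library gave 0 to 1 lower and 0 to 1 in replication, the call being Uhrf1 without BMDM 5. Deviations from the group means had correlations of 0.279, 0.129 and -0.00649 between same-numbered libraries. Pairs with different numbers ran from -0.3 to 0.273. These few values cannot decide whether the numbers pair the libraries. Over all genes, 134 were called lower and 183 higher. DESeq2 gave 313 and 601, no filter 318 and 403, the replicate block 1774 and 1449, and BMDM 1 to 3 gave 1312 and 1028. limma-voom gave 250 lower and 141 higher, with the balance turned toward lower. Leaving out each library gave 46 (without microglia 3) to 602 (without BMDM 5) lower and 58 to 536 higher (without the same libraries). Fold changes near 0 changed sign. E2f1 ran from -0.0824 to 0.76 with a library left out. Ccne2 was 0.0766 with BMDM 1 to 3. Tk1 was -1.03 with limma-voom and -0.0743 to 0.53 with a library left out. Cdk1 was 0.0721 with the replicate block and 0.22 with BMDM 1 to 3. Plk1 was 0.0288 with DESeq2, 0.0302 with RLE factors, 0.14 with library totals, 0.0446 with the stricter filter, 0.18 with the replicate block, 0.22 with BMDM 1 to 3 and -0.33 to 0.24 with a library left out. The median of all genes was 0.08, 0.20 with library totals and -0.23 with limma-voom, where the members' median was -0.67, -0.49 and -0.83. The cause of these changes was not tested. Members at few counts had the largest standard errors.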
